A study of Mus musculus with 4 samples.

Results

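The cells described here are the microglia of the authors' cluster 04 taken from a Trem2 heterozygote library (Het) and a wild-type library (WT), both from mice on cuprizone. They were chosen by the library in the cell's name and by the cluster in the authors' file of cells, and number 272 cells (122 WT, 150 Het) of 291 in the cluster and 3023 in the series. Trem2 +/+ and Trem2 +/- male mice of 12 to 14 months had received a diet with 0.2% cuprizone, which chelates copper, kills oligodendrocytes and so removes myelin, for 12 weeks. The cluster also holds 13 cells of a Trem2 -/- library on cuprizone (KO) and 6 cells of a Trem2 +/+ library on control diet, which give side values only. Each library pools hemibrains of 2 animals sorted as live CD11b+ CD45low cells, and the labels do not name the knockout allele or a promoter. The comparison asks how a single copy of Trem2 alters cells that did enter the activated cluster.

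TREM2 is a surface receptor of microglia that binds lipids, lipoproteins and myelin debris and signals through the adaptor TYROBP and the kinase SYK. Microglia that meet such debris take up a disease-associated state (DAM), in which resting-state genes recede and genes of lipid handling, lysosomes and secreted factors come up. In mice without TREM2, microglia are known to stall before the later DAM stage and to accumulate cholesterol esters after demyelination.

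The summed counts of unique molecular identifiers (UMIs, 1 per captured transcript) were 1406878 in WT and 1781655 in Het. Cells had similar depth, with a median of 10796 UMIs in WT (quartiles 6869 to 15628) and 10574.5 in Het (7837 to 15317). Cluster 04 held 15.9% of WT cells (exact binomial 95% interval 13.4 to 18.7) and 18.7% of Het cells (16.1 to 21.6), intervals that overlap. It held 1.47% of KO cells and 1.05% of control-diet cells. The cluster's leading genes are given as a description, since the cells were clustered on expression. In WT, Spp1 (osteopontin) stood at 5335 CPM (the gene's UMIs per 1000000 of all UMIs) in cluster 04 against 200.3 in clusters 01, 02, 05, 06 and 08 together, Lpl (lipoprotein lipase) at 943 against 136, and Lgals3 (galectin-3) at 905 against 98.1. All 13 microglia markers had at least 50 UMIs. No cell barcode of cluster 04 occurred in more than 1 library, although 8 did so in the whole series. With 1 library per genotype there is no replicate check and no test. Intervals are 95% and cover counting error only, so they say nothing of differences between animals. Those of UMI sums also leave out the spread between cells, which for genes such as Apoe was far wider than counting error. Cells were clustered on their expression, so cells of either genotype that differed strongly in the genes used may lie outside cluster 04. In such sums, fewer cells with a transcript and less of it per cell cannot be told apart, so values per cell are given as well.

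Promoters of 3 interferon-response genes that were lower in Het are shown first, because the interferon genes were among the lists whose members were most often lower. Each run is the 250 bases before the RefSeq start (GRCm38.p6), 5′ to 3′ on the gene's strand, with matches to GAAANNGAAA, the core of the element bound by interferon-activated factors, on either strand in capitals. Neighbouring matches may overlap. Isg15 lies on the minus strand (chr4:156200819-156201068), Ifit3 on the plus strand (chr19:34583279-34583528) and Ifitm3 on the minus strand (chr7:141010745-141010994).
Isg15: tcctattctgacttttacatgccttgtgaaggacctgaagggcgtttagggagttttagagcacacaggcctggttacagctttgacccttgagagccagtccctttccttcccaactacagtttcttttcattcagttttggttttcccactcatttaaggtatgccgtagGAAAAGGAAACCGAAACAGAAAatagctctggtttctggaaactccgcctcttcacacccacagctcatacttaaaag
Ifit3: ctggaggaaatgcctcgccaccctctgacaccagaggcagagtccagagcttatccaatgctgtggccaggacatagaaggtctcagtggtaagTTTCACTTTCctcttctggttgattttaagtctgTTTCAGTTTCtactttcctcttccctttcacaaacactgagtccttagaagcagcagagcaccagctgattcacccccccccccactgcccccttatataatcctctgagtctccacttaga
Ifitm3: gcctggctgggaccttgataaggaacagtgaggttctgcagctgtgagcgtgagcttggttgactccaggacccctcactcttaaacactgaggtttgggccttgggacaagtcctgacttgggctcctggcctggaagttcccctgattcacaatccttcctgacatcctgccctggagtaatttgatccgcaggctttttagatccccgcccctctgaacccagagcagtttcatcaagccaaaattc
Isg15 has 3 overlapping matches, starting at positions -78, -72 and -66 from the gene's start. Ifit3 has 2, at -156 and -122 on the other strand, and Ifitm3 has none in this window. The motif is present in 3.04% of 27025 RefSeq promoters of this length and in 9 of the 17 interferon-response genes that have an entry. Among the 6 genes of that list that were lower in Het and have an entry, 3 hold a match. A match is a run of letters and not a measured binding site.

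Trem2, the targeted gene (chromosome 17, 48346401 to 48352276, RefSeq GRCm38.p6), was lower in Het, as the label gives it. It had 3491 UMIs or 1959 CPM in Het and 4488 UMIs or 3190 CPM in WT, a Het to WT ratio of 0.614 (0.587 to 0.642). The cluster's few other cells stood on either side, with 638 CPM in KO (514 to 783) and 3666 CPM on control diet. A 3′ tag can count transcripts from a disrupted allele, so these values do not measure functional receptor. Every cell was next thinned to 4553 UMIs, which kept 107 WT and 137 Het cells. Trem2 then had a median of 9 UMIs per Het cell (quartiles 7 to 12) and 14 per WT cell (10 to 17). Of Het cells 10.2% (5.70 to 16.6) lay above the WT median, against 46.7% of WT cells. The variance of thinned UMIs over cells was 1.58 times their mean in Het and 1.86 times in WT. The cell with most Trem2 held 1.89% of the Het and 2.52% of the WT UMIs. The lower level was thus spread over the Het cells, and no small group of cells carried it. The ratio in the other clusters lay between 0.550 and 0.609, close to that of cluster 04. Of 30 other tested genes within 5 Mb of Trem2, none was at least 1.5-fold higher and 1, Mrpl2, was lower, by the rule given below. Over all genes tested 1.37% were higher and 2.43% lower. The median log2 ratio of the 30 was -0.11 and that of the 7 within 1 Mb was -0.19, against -0.04 over all genes.

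**Figure D1:**
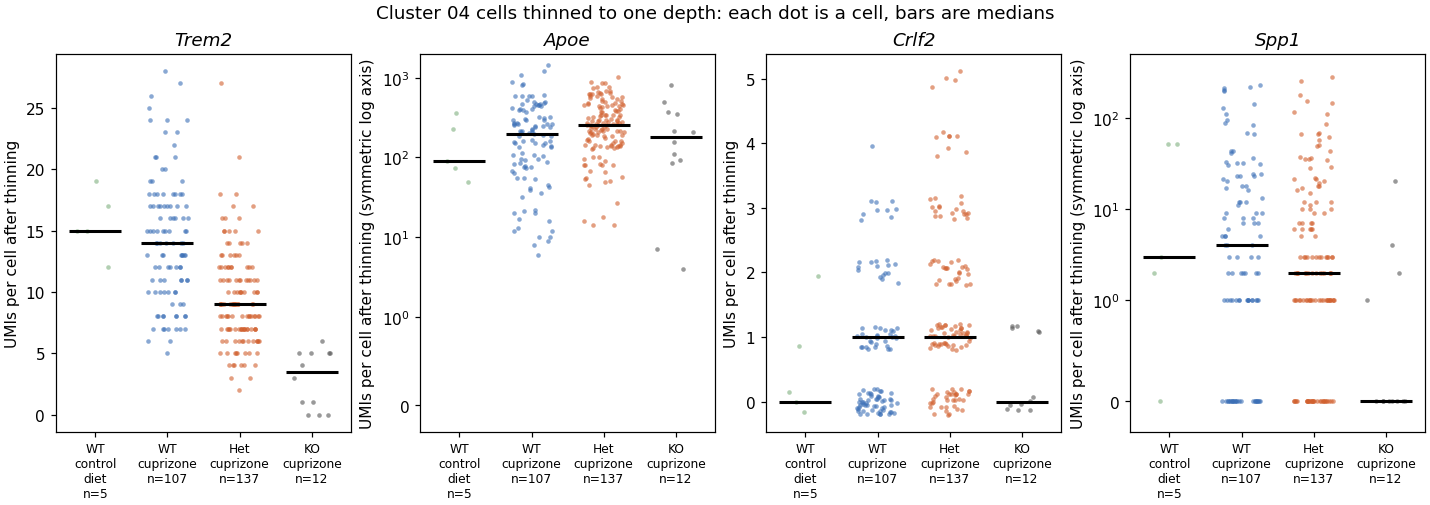
UMIs per cell of Trem2, Apoe, Crlf2 and Spp1 in cluster 04 after thinning to 4553 UMIs, for the 4 libraries, where each dot is a cell and each bar a median. Trem2 medians are 9 in Het and 14 in WT, Apoe medians 259 and 197, and the symmetric log axes of Apoe and Spp1 are linear below 1.

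The tested genes of the TREM2 signalling list, apart from Trem2 itself, did not pass 1.5-fold. A gene was counted as higher or lower where its ratio passed 1.5-fold, its interval excluded 1 and the libraries together held at least 50 UMIs. Over all 5387 genes with 50 UMIs, 1.37% were higher in Het, 2.43% were lower, and the median log2 ratio was -0.04. Of 14 genes tested in the signalling list, which counts Trem2, none was higher and Trem2 alone was lower. Tyrobp, the signalling adaptor, had a ratio of 0.963 (0.937 to 0.991), and Ptpn6, a phosphatase that opposes SYK signals, one of 0.828 (0.722 to 0.95). The median of the list was -0.15 in log2 with 11 of 14 ratios below 1, and -0.01 where the mean of per-cell CPM replaced the sum.

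Few genes of the activation programme passed 1.5-fold between Het and WT cells of cluster 04. Cells were placed in this cluster by their expression, so similar levels of these genes follow in part from the selection. In the TREM2-independent DAM list none of 10 genes passed 1.5-fold, and in the TREM2-dependent list only Trem2, itself 1 of its 19 members, was lower. The median log2 ratios of these lists were 0.06 and -0.01. Their summed UMIs gave ratios of 1.16 (1.15 to 1.17) and 0.917 (0.904 to 0.929). Apoe alone held 110655 of the first list's 205359 UMIs in Het and 65603 of 139588 in WT. Spp1 held 6642 of the second list's 46083 UMIs in Het and 7505 of 39704 in WT. Trem2, also in the second list, held 3491 and 4488. Single genes thus weigh heavily in both sums, and Apoe and Spp1 are given below. Lpl had a ratio of 0.954 (0.886 to 1.03), Lgals3 one of 0.955 (0.886 to 1.03) and Cd9, a tetraspanin, one of 0.962 (0.926 to 0.999). Cst7, a cystatin that inhibits lysosomal proteases, stood at 905 CPM in Het and 837 in WT, a ratio of 1.08. A further list of demyelination or disease-associated genes had 19 tested members and a median of -0.03. Of these 2, Mmp12 (given below) and Postn (log2 -0.66), were lower and none higher, against 2.43% lower over all genes. In the other clusters together 6 of 19 were higher and none lower, against 1.39% and 0.97% of all genes there. Of 22 homeostatic genes 1, the uroplakin gene Upk1b, was lower (58 against 80 UMIs, 0.572, 0.401 to 0.813), against 2.43% of all genes. P2ry12, a purine receptor of resting microglia, had a ratio of 0.954 (0.889 to 1.02) and Cx3cr1, the fractalkine receptor, one of 0.998 (0.939 to 1.06). None of 39 lysosomal genes passed 1.5-fold, and 29 of them had a ratio above 1. The protease gene Ctsd was at 1.09 (1.07 to 1.11) and Ctsb at 1.10 (1.07 to 1.13).

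**Figure D2:**
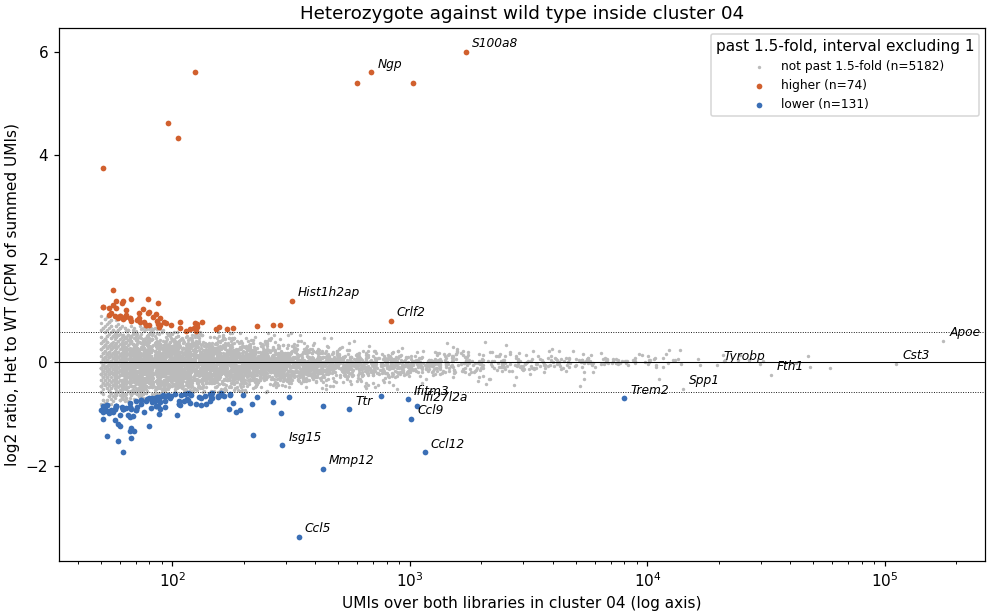
Log2 ratio of Het to WT against the summed UMIs of each of 5387 genes in cluster 04, with genes past 1.5-fold in colour (74 higher, 131 lower) and dotted lines at 1.5-fold. Most genes past the lines have few UMIs, and Trem2 is the most abundant gene past them.

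Apoe, the main apolipoprotein of the brain and the carrier of the lipids that microglia export, was higher in Het without reaching 1.5-fold. It stood at 62108 CPM in Het and 46630 in WT, a ratio of 1.33 (1.32 to 1.34), at 45325 CPM in KO and at 31921 on control diet. Per thinned cell the median was 259 UMIs in Het (142 to 442) and 197 in WT (76 to 380.5), so the lower quartiles lay further apart than the upper ones. Of Het cells 64.2% (55.6 to 72.2) exceeded the WT median. The variance of thinned UMIs was 146 times the mean in Het and 260 times in WT, which is a narrower spread between Het cells. In the other clusters the Apoe ratio ranged from 1.01 in cluster 05 to 2.56 in cluster 08. Apoc1, a neighbouring apolipoprotein gene, had 206 and 110 UMIs in Het and WT and a ratio of 1.48 (1.17 to 1.88), and passed 1.5-fold under TMM scaling (log2 0.61) but not under the scaling by totals (0.56).

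Other genes of lipid handling moved little, apart from the sterol synthesis list. Of 18 genes of cholesterol transport none passed 1.5-fold, with Abca1, the main cholesterol exporter, at 0.937 (0.728 to 1.21) and Npc2, which carries cholesterol within lysosomes, at 1766 CPM in both. The fatty acid carrier Fabp5 stood at 272 CPM in both and the lipid droplet coat gene Plin2 at 0.984 (0.773 to 1.25). Of 11 genes of lipid droplets and fatty acids 1 was lower, against 2.43% of all genes. This was Cd36, a scavenger receptor, with 23 UMIs in Het and 44 in WT (0.413, 0.238 to 0.699). Sterol synthesis and uptake was thinly covered, with 508 UMIs in Het and 544 in WT over its 24 genes. Of the 8 with 50 UMIs, 4 were lower, against 2.43% of all genes. These were Msmo1 (40 against 64 UMIs, 0.494), Insig1 (26 against 38, 0.540), Fdps (35 against 50, 0.553) and Dhcr7 (33 against 44, 0.592). Msmo1, Fdps and Dhcr7 encode enzymes of sterol synthesis and Insig1 a sterol sensor that restrains it. The median of the list was -0.66 in log2. Without the 5% of cells with most UMIs of each gene it was -0.22 and none of the 4 was called, since fewer than 50 UMIs were left for 3 of them. The ratios were then 0.459 (0.242 to 0.846) for Fdps, 0.600 (0.312 to 1.13) for Dhcr7, 0.619 (0.367 to 1.03) for Msmo1 and 0.733 (0.317 to 1.68) for Insig1.

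Spp1, the cluster's leading gene, was lower in Het without passing 1.5-fold, at 3728 CPM against 5335 in WT (0.699, 0.676 to 0.722), with 666 CPM in KO and 3387 on control diet. Its thinned median was 2 UMIs in Het (1 to 12) and 4 in WT (1 to 22), and 10 Het and 8 WT cells held the first 50% of each library's Spp1 UMIs. In the other clusters together the ratio was 0.992 (0.906 to 1.09). Without the cells rich in neutrophil or border macrophage markers described at the end, Spp1 passed 1.5-fold (0.662, 0.640 to 0.685). It did not pass without each library's top cell (0.705, 0.681 to 0.729). Nor did it without the 5% of cells with most Spp1 UMIs (0.742, 0.708 to 0.776). Mmp12, a macrophage elastase, was lower with 100 UMIs in Het and 329 in WT (0.240, 0.190 to 0.301). A single WT cell held 39.8% of the WT Mmp12, and leaving out each library's top cell gave a ratio of 0.35 (0.27 to 0.45). Igf1, a growth factor for oligodendrocyte precursors, was at 1.32 (1.11 to 1.57). Gpnmb, a membrane protein of lysosome-rich macrophages, was at 1.44 (1.15 to 1.81) with 42.6% of its WT UMIs in 1 cell, and at log2 1.15 without the top cells, which passes 1.5-fold.

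**Figure D3:**
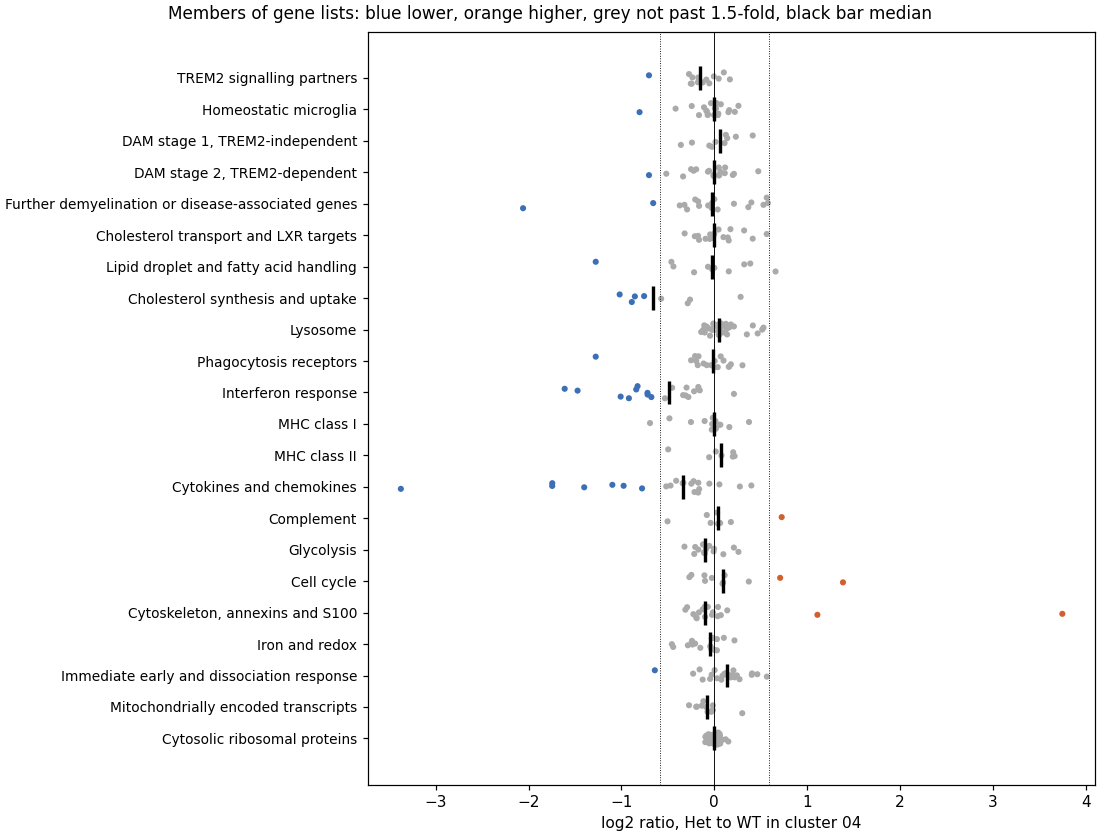
Log2 ratio of Het to WT for members of 22 gene lists with at least 50 UMIs in cluster 04, where a dot is a gene and a black bar the median of its list. The medians of most lists lie near 0, and those of sterol synthesis (-0.66), interferon response (-0.49) and cytokines and chemokines (-0.34) lie below.

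A group of chemokine genes was lower in Het. Of 22 cytokine and chemokine genes tested 7 were lower and none higher, against 2.43% lower over all genes, and 19 of the 22 ratios lay below 1. The median log2 ratio was -0.34, and the summed UMIs gave a ratio of 0.743 (0.726 to 0.760). Per thinned cell the list had a median of 28 UMIs in Het (16 to 48) and 35 in WT (20.5 to 60.5). The CCR2 ligands of the list, Ccl2, Ccl7 and Ccl12, lie near each other on chromosome 11 and were all lower. CCR2 is the receptor by which monocytes are drawn to a site. Ccl2 (82035577 to 82037452) had 112 UMIs in Het and 174 in WT (0.508, 0.397 to 0.648). Ccl7 (82045712 to 82047525) had 71 and 148 (0.379, 0.281 to 0.506). Ccl12 (82101845 to 82103399) had 316 and 836 (0.298, 0.261 to 0.340), with 62 UMIs or 435 CPM in KO. Het cells held the lowest level of Ccl12 among the 3 libraries on cuprizone, at 177 CPM against 594 in WT. The control-diet cells stood at 132 CPM (60.3 to 251) from 9 UMIs. After thinning, the median of Ccl12 was 0 UMIs per cell in both Het and WT.

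Further along that chromosome Ccl9, a macrophage-derived chemokine (83572917 to 83578636), had 377 UMIs in Het and 637 in WT (0.467, 0.410 to 0.532). Its ratio was 0.916 (0.841 to 0.997) in the other clusters together. Ccl3 and Ccl4, the most abundant chemokines measured here, did not pass 1.5-fold at 0.721 (0.683 to 0.762) and 0.794 (0.765 to 0.824). Ccl5, a chemokine that also attracts T cells, was the most reduced of the list, with 37 UMIs against 303 (0.0964, 0.0666 to 0.136), but 1 WT cell held 88.8% of the WT UMIs. Ccl5 also stands in the list of T or NK cell markers, which summed to 42 UMIs in Het and 304 in WT, so the other markers of that list were close to 0. Also lower were Cxcl2, which draws neutrophils, with a ratio of 0.583 (0.453 to 0.749), and Il1rn, the interleukin-1 receptor antagonist, with 17 UMIs against 45. The inflammatory cytokine genes Tnf (0.752, 0.647 to 0.875) and Il1b (0.863, 0.744 to 1.001) did not pass 1.5-fold. With each gene's top cell in each library left out, where 2.07% of all genes were lower, 5 of the 7 were still lower: Ccl2, Ccl7, Ccl9, Ccl12 and Cxcl2. The other two had fewer than 50 UMIs left, with ratios of 0.132 (0.0453 to 0.315) for Il1rn and 0.302 (0.146 to 0.587) for Ccl5. Without the 5% of cells with most UMIs of each gene, where 1.87% of all genes were lower, 5 genes of the list were. Of the 7, Ccl2, Ccl9 (0.665, 0.561 to 0.788) and Ccl12 were among them. The others had fewer than 50 UMIs left, with ratios of 0.395 (0.135 to 1.05) for Ccl7 and 0.497 (0.254 to 0.946) for Cxcl2. Il1rn and Ccl5 kept 11 UMIs each. In the other clusters together 2 of 22 were lower and 1 was higher, against 0.97% and 1.39% of all genes there. The median was -0.08. The difference between cluster 04 and the others was not tested.

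Interferon-response genes were also lower as a list, and this rested in part on a few WT cells. Of 20 genes tested 9 were lower and none higher, against 2.43% lower over all genes. Of the ratios 19 lay below 1, and the median log2 ratio was -0.49, against -0.04 over all genes. Isg15, a ubiquitin-like modifier, had 85 UMIs in Het and 205 in WT (0.327, 0.251 to 0.424), 49 UMIs or 343 CPM in KO and 0 UMIs on control diet. Ifi27l2a stood at 442 against 625 UMIs (0.558, 0.493 to 0.632) and Ifitm3, a membrane protein that restricts virus entry, at 425 against 552 (0.608, 0.534 to 0.691), a call lost in thinned cells (log2 -0.46). Ifit3, an antiviral RNA-binding protein, had 77 against 115 (0.529, 0.391 to 0.712). The others were Irf7 and Irf9, which encode transcription factors of the pathway, Oas1a, an RNA sensor, Usp18, the protease that removes ISG15, and Zbp1, a nucleic acid sensor, with ratios between 0.360 and 0.625. In contrast with Trem2, the list's sum in the median cell was alike in both libraries. The list had a median of 10 thinned UMIs per cell in both libraries, with quartiles of 6 to 15 in Het and 7.5 to 15.5 in WT. This sum includes abundant genes that were not called, such as Ly6e, with 1295 of the list's 4505 UMIs in Het and 1150 of 4715 in WT. Of the lower genes, Ifi27l2a had a thinned median of 0 UMIs in Het and 1 in WT. Ifitm3 had a median of 1 and Isg15 of 0 in both. The share of cells with a thinned Isg15 UMI was 12.4% in Het (7.40 to 19.1) and 18.7% in WT (11.8 to 27.4), intervals that overlap.

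A single WT cell of 14434 UMIs held 385 UMIs of the interferon list, 8.17% of the library's, while the next WT cell held 175 and no Het cell more than 121. That cell contributed 43.4% of WT Isg15, 31.5% of Irf7, 23.9% of Ccl12 and 88.8% of Ccl5. It carried 643 UMIs of the microglia markers. With it and 2 Het cells described below left out, 6 of the 20 genes were lower, against 2.32% of all genes, and the summed ratio moved from 0.754 (0.724 to 0.786) to 0.813 (0.780 to 0.848). Without the 5% of cells with most UMIs of each gene, where 1.87% of all genes were lower, 3 were. They were Isg15 (0.57, 0.38 to 0.84), Ifitm3 (0.60, 0.51 to 0.71) and Irf9 (0.60, 0.37 to 0.95). Ifi27l2a (0.671, 0.578 to 0.778), Oas1a (0.751, 0.472 to 1.19) and Usp18 (0.790, 0.472 to 1.32) kept 50 UMIs and did not pass. Zbp1 (0.279, 0.09 to 0.741) and Irf7 (0.707, 0.345 to 1.44) had fewer than 50 UMIs left. In the other clusters together the median was -0.22 and 1 of 25 genes was lower, against 0.97% of all genes there. Antigen presentation genes, which interferon also raises, stayed level: none of 14 class I and 7 class II genes passed 1.5-fold, with B2m at 1.01 (0.982 to 1.04) and Cd74 at 1.01 (0.967 to 1.06).

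**Figure D4:**
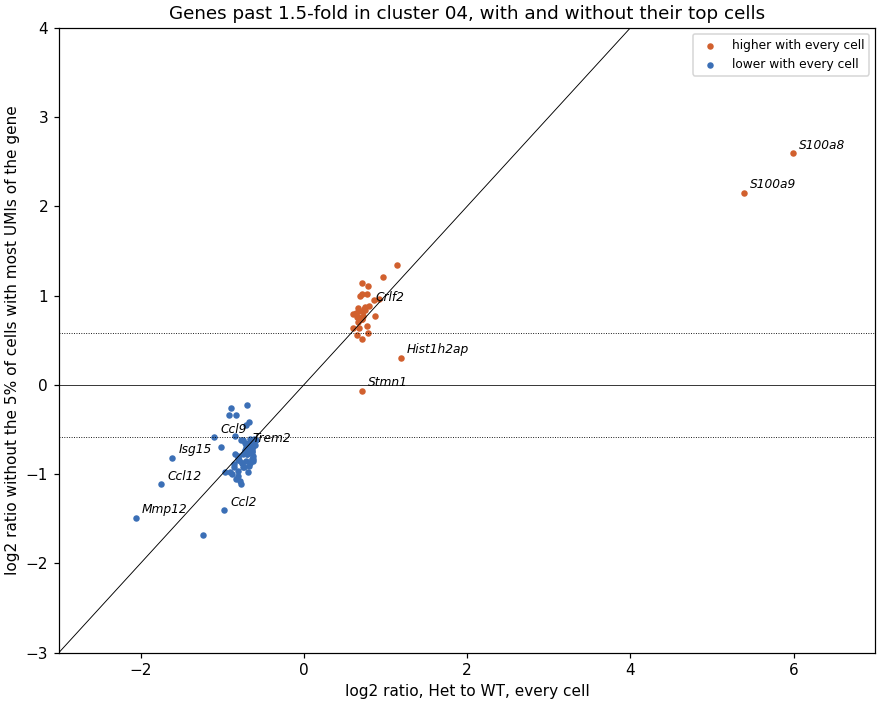
Log2 ratio of Het to WT with every cell against the ratio without the 5% of cells that hold most UMIs of the gene in each library, for genes past 1.5-fold that keep 50 UMIs. Trem2 and Crlf2 lie on or near the diagonal, while Stmn1 and Hist1h2ap come close to 0 and S100a8 and S100a9 move most.

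The genes past 1.5-fold were mostly of low abundance. The 74 higher and 131 lower genes had medians of 81.5 and 89 UMIs over both libraries, and 2 and 8 of them were gene models or pseudogenes. Scaling by TMM gave 99 higher and 100 lower, so the excess of lower genes rests on the scaling. Of 419 genes with at least 1000 UMIs 6 passed: S100a8 and S100a9 were higher, and Trem2, Ccl12, Ccl9 and Ifi27l2a were lower. When each gene's top cell was left out of each library, 64 of the 74 and 98 of the 131 were still called, while 1.64% of all genes were then higher and 2.07% lower. Of the genes no longer called, 7 higher and 15 lower ones had fewer than 50 UMIs left, and 6 and 15 of these still had a ratio past 1.5-fold. Without the top 5% of cells 24 and 53 were called, with 1.82% of all genes higher and 1.87% lower. Here 39 and 57 genes had fewer than 50 UMIs left, and 31 and 49 of these still had a ratio past 1.5-fold. In the other clusters together 1.39% of genes were higher and 0.97% lower by the same rule. Of the 74 higher genes 11 were also higher there, and of the 127 lower genes tested there 10 were also lower.

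Of the higher genes, Crlf2 combined many UMIs with a broad spread over cells. It encodes a subunit of the receptor for thymic stromal lymphopoietin (chromosome 5, 109554709 to 109559128). It had 572 UMIs or 321 CPM in Het and 259 UMIs or 184 CPM in WT (1.74, 1.503 to 2.03), 98.1 CPM in KO and 117 CPM on control diet. After thinning, 40.1% of Het cells (31.9 to 48.9) and 23.4% of WT cells (15.7 to 32.5) held more than 1 UMI. Its top cell held 2.80% of the Het UMIs, and the ratio without the top 5% of cells was 1.85 (1.57 to 2.19). In the other clusters together the ratio was 1.20 (1.09 to 1.32). Pianp, a ligand of the inhibitory receptor PILRA, had 153 UMIs against 74 (1.63, 1.23 to 2.19), and was also higher in the other clusters together (2.12, 1.44 to 3.18). C5ar2, a receptor for complement C5a, had 67 against 32 (1.65, 1.07 to 2.60), while C5ar1 was at 0.705 (0.580 to 0.857). Gadd45g, a stress-response gene, was at 1.64 (1.27 to 2.13) and the zinc finger gene Zfp691 at 1.71 (1.17 to 2.53). In thinned cells C5ar2 (log2 0.997, interval -0.17 to 2.29) and Zfp691 (log2 0.17) were no longer called. Without the top 5% of cells the ratio of C5ar2 was 1.70 (0.967 to 3.11) and that of Gadd45g 1.42 (0.982 to 2.09), and neither was called.

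The higher cell division genes were concentrated in 3 Het cells. These held 307, 290 and 168 UMIs of the cell cycle list, the next Het cell 92 and the highest WT cell 62. Stmn1, which destabilises microtubules, had 178 UMIs against 86 (1.63, 1.26 to 2.14), Cdk1, the mitotic kinase, 43 against 13 (2.61, 1.38 to 5.29) and the histone gene Hist1h2ap 236 against 82 (2.27, 1.76 to 2.96). The 3 cells held 50.6%, 62.8% and 49.2% of these Het UMIs. Without them the ratios were 0.837 (0.615 to 1.14), 1.01 (0.454 to 2.27) and 1.20 (0.896 to 1.60). Of 11 cell cycle genes tested Stmn1 and Cdk1 were higher, against 1.37% of all genes, and none was lower. The list's thinned median was 8 UMIs per cell in both libraries. Hist1h2ap has near-identical histone copies, so its count is uncertain.

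Neutrophil granule genes showed the largest ratios, and almost all of their UMIs lay in 2 Het cells. All 6 tested were higher, against 1.37% of all genes, with 4227 UMIs over the list of 10 in Het and 69 in WT. S100a8, a calcium-binding protein of neutrophils, had 1695 UMIs against 21 (63.7, 41.6 to 103). Ngp, Camp, Ltf and Lcn2, which encode granule proteins, had 675, 585, 123 and 102 UMIs against 11, 11, 2 and 4. The 2 cells held 2236 and 1676 UMIs of the list, no other Het cell more than 8 and no WT cell more than 2. They also carried 730 and 326 UMIs of the microglia markers in totals of 22582 and 10082. The first also held 103 UMIs of the border-associated macrophage markers, 11.7% of the library's, and 383 of the cytokine and chemokine list, while the second held 2 and 67. Annexin A1 (Anxa1), with 51 UMIs in Het and 0 in WT (at least 13.4-fold higher with a floor of 3 UMIs in WT), had 32 and 18 of its UMIs in these cells. With the 3 outlying cells left out, the summed ratio of the list was 3.69 (2.83 to 4.87). S100a8 was higher in Het in each of the other clusters, from 2.69-fold in cluster 06 to 72.8-fold in cluster 05. Doublets and RNA from outside cells were not tested as sources. The defining markers Ly6g, Mpo and Elane of the same list had fewer than 50 UMIs each.

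Among the lower genes outside these lists, Ttr and AY036118 were spread over cells. Ttr, the thyroid hormone carrier made by the choroid plexus, had 223 UMIs against 331 (0.532, 0.447 to 0.632), with at most 3.14% in 1 cell, and lay between 0.468 and 0.723 in the other clusters. It made up nearly all of the choroid plexus and ependymal marker list, which summed to 230 UMIs in Het and 337 in WT. AY036118, a non-coding RNA gene on chromosome 17 whose reads often include ribosomal RNA, had 177 against 253 (0.552, 0.453 to 0.672), with 11 UMIs or 77.1 CPM in KO and 29 UMIs or 425 CPM on control diet. It lay between 0.581 and 0.730 in the other clusters. Ass1, an enzyme of arginine synthesis, had 73 against 113 (0.510, 0.375 to 0.691).

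**Figure D5:**
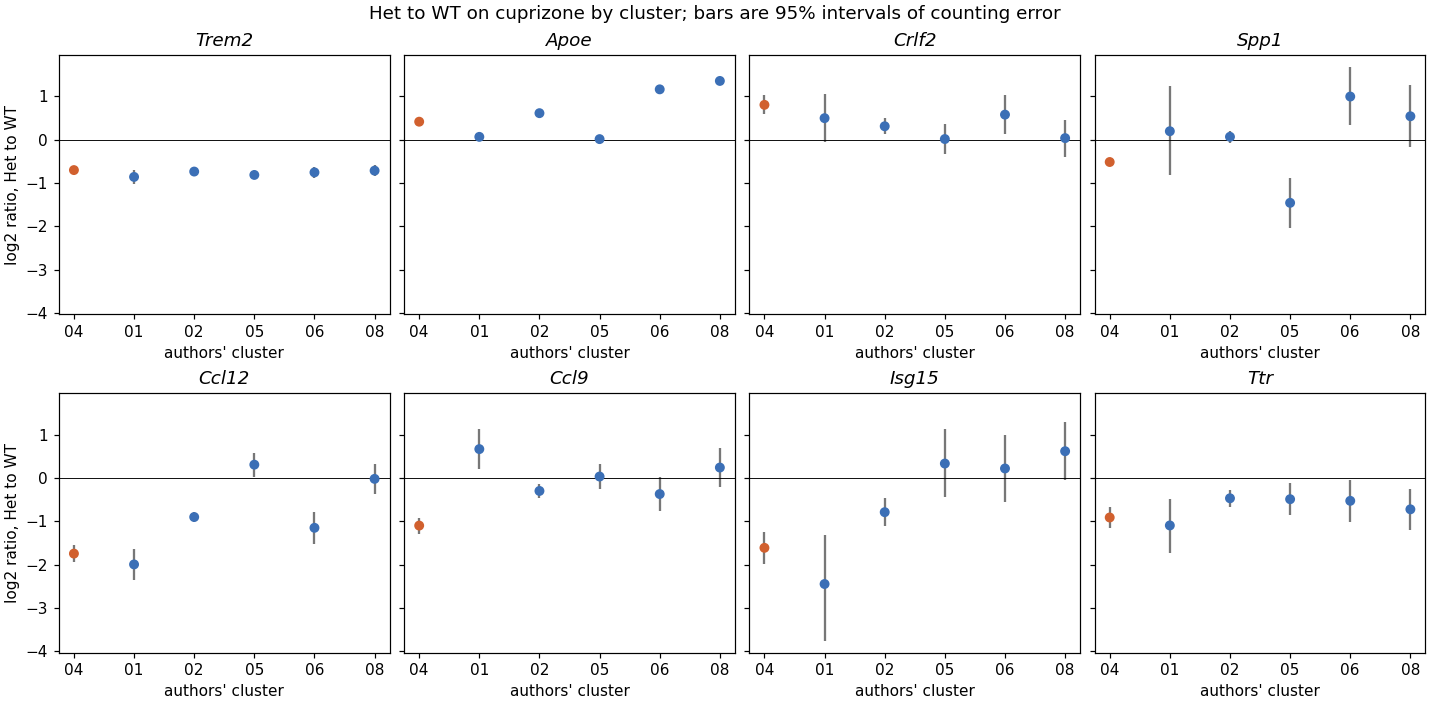
Log2 ratio of Het to WT for 8 genes in cluster 04 (orange) and in clusters 01, 02, 05, 06 and 08 (blue), with bars for the 95% interval of counting error. Trem2 lies near the same value in each cluster, while Ccl12 and Spp1 lie on either side of 0 in different clusters with intervals that exclude it.

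Of 12 mitochondrially encoded transcripts and 60 ribosomal protein genes none passed 1.5-fold, and their median log2 ratios were -0.08 and -0.01. Non-coding RNA genes whose reads often include ribosomal RNA were lower in Het: AY036118 as given above, Gm42418 with 336 against 420 UMIs (0.632, 0.546 to 0.731) and Gm26917 with 89 against 109 (0.645, 0.482 to 0.861). They stayed lower without the top 5% of cells, and in the other clusters together Gm42418 had a ratio of 0.732 (0.673 to 0.795). Their part in the other results was not tested. Immediate early and dissociation genes had a median of 0.13, with 18 of 24 above 1. Of these 24 genes 1, the zinc finger factor Klf4, was lower at 0.642 (0.455 to 0.901), against 2.43% of all genes. Iron and redox genes had a median of -0.04 with none past 1.5-fold, although Fth1, the ferritin heavy chain, stood at 0.846 (0.828 to 0.865). None of 16 glycolysis genes passed.

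Markers of other cells were scarce. The 11 border-associated macrophage markers summed to 884 UMIs or 496 CPM in Het and 773 UMIs or 549 CPM in WT (0.903, 0.819 to 0.996). Of the 9 with 50 UMIs 1, Folr2, was lower (31 against 43 UMIs), against 2.43% of all genes. Without the 3 outlying cells the summed ratio of the 11 markers was 0.802 (0.725 to 0.887) and 3 were lower, against 2.32% of all genes. This takes out the Het cell with most of these UMIs, 103, but keeps the WT cell with most, 56. The lower ratio thus follows in part from the choice of cells. Monocyte markers summed to 49.95 CPM in Het and 55.44 in WT, with Fn1 lower (17 against 36 UMIs). The cells with most UMIs of the neutrophil and border macrophage markers, 8 Het and 6 WT cells above the 95th percentile, were then left out, and 2.25% of all genes were lower. The border macrophage markers then had a summed ratio of 0.829 (0.733 to 0.939), and of 4 tested Pf4 alone was lower. Of 22 cytokine and chemokine genes 8 were lower, the 7 named above and Pf4, a platelet factor that is also among the markers used to pick these cells. The summed ratio of that list was 0.731 (0.714 to 0.749), against 0.743 with every cell. Ccl7 was left with 14 UMIs in Het and 117 in WT (0.0953, 0.0505 to 0.166), against 0.379 with every cell. Of 20 interferon-response genes 8 of the 9 were still lower, all but Ifit3, and the summed ratio was 0.818 (0.784 to 0.855), against 0.754.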

How the data were processed

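Single-cell UMI counts came from the Chromium Single Cell 3′ v2 kit. The deposited values are whole-number counts per gene and cell, made by the authors with Cell Ranger 2.1.1 on mm10, per the submitters' processing notes; the gene annotation is not given in the sources used here. The deposited table holds 12800 genes and 3023 cells after the authors' filters, and cluster names are theirs. No doublet caller was run.

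For each library, the UMIs of its cluster 04 cells were added up and scaled to their total (CPM). Ratios carry exact conditional binomial (Clopper-Pearson) 95% intervals, CPM exact Poisson and shares exact binomial intervals. No test was run, since each genotype is 1 library. Genes were called at 1.5-fold, an interval excluding 1 and 50 UMIs. Named genes are Trem2, up to 12 higher and 12 lower genes with 100 UMIs ordered by the interval bound nearest 1, and from each list the 3 members with most UMIs and the largest ratio. Other members and Mrpl2 were named after their values were seen. Members and lists were chosen with earlier results of these data known. Thinning drew 4553 UMIs per cell, the 10th percentile, and left out 15 WT and 13 Het cells. TMM factors came from edgeR 4.0.16 on the counts. The ratio and its interval were tested on simulated Poisson counts of the library sums. These had no spread between cells, so they do not show how the interval behaves with it. Positions and promoters are from RefSeq, matched by symbol for 12230 of 12800 genes.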

Additional observations from a re-analysis of the deposited data

Results flagged for a closer look

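The Het to WT ratio of 2 named genes pointed opposite ways in cluster 04 and in clusters 01, 02, 05, 06 and 08 together, with counting intervals that excluded 1 on both sides. Mmp12 had a log2 ratio of -2.06 in cluster 04 (100 against 329 UMIs) and 0.88 in the other clusters (68 against 37 UMIs). Insig1 had -0.89 in cluster 04 (26 against 38 UMIs) and 0.66 in the others (90 against 57 UMIs). The difference between clusters was not tested, with 1 library per genotype.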

How the results depend on the processing

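The Trem2 ratio stayed past 1.5-fold in each of the 10 other settings run on it, from log2 -0.72 to -0.60. The counts of 74 higher and 131 lower genes moved by over 1.5 times as follows. The mean of per-cell CPM gave 144 higher. Of these 54 were among the 74. Thinned cells gave 36 higher and 61 lower, of which 10 and 18 were among the genes called with every UMI, where 11 and 31 of those genes still had 50 UMIs. A minimum of 10 UMIs gave 177 and 235, and one of 200 UMIs gave 9 and 17. A 2-fold limit gave 23 and 24. Without the 5% of cells with most UMIs of each gene, a setting chosen after seeing the data, 75 genes were lower. Higher genes made up 36.1% of all called genes, 49.7% under TMM and 47.3% under median-of-ratios scaling. These scalings moved the median of all genes from -0.04 to 0.01 and -0.00. Stmn1 turned from 0.71 to -0.068 without the top 5% of cells. Values that left fewer than 10 UMIs were not computed. The medians of the interferon and chemokine lists stayed below 0 in the 12 settings run on each, between -0.53 and -0.27 and between -0.43 and -0.26. No paired analysis was possible because each genotype has 1 library. Depth limits single genes, since the called genes had medians of 81.5 (higher) and 89 (lower) UMIs.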
